A study of Sus scrofa with 48 samples.

Results

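Liver and fat of the same pig were compared gilt by gilt, to describe which genes were high in both tissues of one animal and low in both tissues of another treated alike. All 48 arrays of the study entered, as 24 pairs of 1 liver and 1 fat array with the same genotype, feeding state and replicate number. Of 23999 probe sets on the array (each a group of short probes for 1 transcript), 10948 had a mean log2 signal of at least 7 in both tissues and were tested, and 13051 were not. The probe set just inside that limit had r = -0.0147 and the one just outside r = 0.245, and the median r of those below it was 0.0325.

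The animals were Yorkshire gilts, 6 months old, of a line bred for low residual feed intake, which means high feed efficiency. They were homozygous for either the D298 form, taken as wildtype, or the N298 form of the melanocortin receptor MC4R, through which the brain controls appetite. Gilts of each genotype ate ad libitum or went 3 days without feed, in a randomized block design. This gave 4 groups of 6 gilts (D298 fed, D298 fasted, N298 fed and N298 fasted), each with 6 liver and 6 fat arrays.

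Transcript levels differ between animals kept alike because of inherited variants, infection, stress hormones, the time of sampling and the make-up of the tissue, and many of these reach every organ. Interferons, for example, are released on infection and act on most cells of the body, which then raise a shared set of antiviral genes. Tissue macrophages are part of both organs, as the Kupffer cells of liver and the macrophages of fat. Liver and fat are also the main sites of fuel handling in a fasted pig and are reached by the same glucocorticoids and insulin.

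For each probe set the mean of the own tissue, genotype and feeding group was taken from every log2 signal, so that the effects of fasting and genotype were removed. The residuals of liver and fat were then correlated over the 24 pairs, with a two-sided test of the partial correlation on 19 degrees of freedom. The Benjamini-Hochberg adjustment ran over all 10948 tests, and calls were made below an adjusted p of 0.05, which was reached from r = 0.634 upwards. Intervals are 95% confidence intervals, and the number of gilts limits their precision.

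The tissue labels were checked first. Signals of 18 hepatocyte marker genes summed to 472687 to 675487 per liver array and to 4343 to 27385 per fat array. Those of 11 adipocyte markers summed to 84147 to 117898 in fat and to 31013 to 45047 in liver. ADIPOQ, the fat hormone adiponectin, had a median log2 signal of 14.73 in fat and 5.54 in liver. In 4 fat arrays ALB, the serum albumin gene of hepatocytes, stood at log2 12.87 to 13.21, against 6.496 to 8.41 in the other 20, and TTR, another hepatocyte gene, at 8.47 to 9.07 against 2.10 to 6.27. These were D298 fed 4, D298 fasted 5, N298 fed 3 and N298 fed 6. The summed signal of 20 markers of skeletal muscle varied in fat from 9955 to 200142, against 3058 to 11496 in liver. Of the 52 named genes called in the results that follow, 14 lost their call without the 4 gilts high in fat ALB: PTDSS1, CDKN1A, TAPBP, CEBPD, FKBP5, NDUFS1, CYCS, IDH1, ETFA, PRDX5, CTSD, HNRNPA1, TRA2B and CD163.

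The labels do not state that a liver and a fat array of the same number came from 1 gilt, so the join was checked on the whole profiles. Over all tested probe sets, the residual profile of a liver array correlated with the fat array of its own number at a mean r of 0.216 ± 0.0805 (SD, n = 24 pairs), with a range of 0.0515 to 0.388. The mean was -0.0430 with fat of the other gilts of the group, 0.0403 with fat of the same number in the other groups and -0.00790 with the remaining fat arrays. In 22 of 24 pairs the own fat array correlated better than that of every other gilt of the group, and 18 livers matched their own fat best among all 24. Reassigning fat arrays within the groups gave p = 1e-05 (two-sided permutation test), the smallest that 100000 permutations can give.

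The exceptions were D298 fasted 5 and N298 fed 6, with own r of 0.0515 and 0.0817 against 0.0938 and 0.118 for the best other gilt. Both belonged to the 4 fat arrays high in ALB. In those 4 pairs the own r lay between 0.0515 and 0.233 (median 0.135), and in the other 20 between 0.138 and 0.388 (median 0.212). The ranges overlapped, and the part of liver RNA in these values was not tested.

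**Figure D1:**
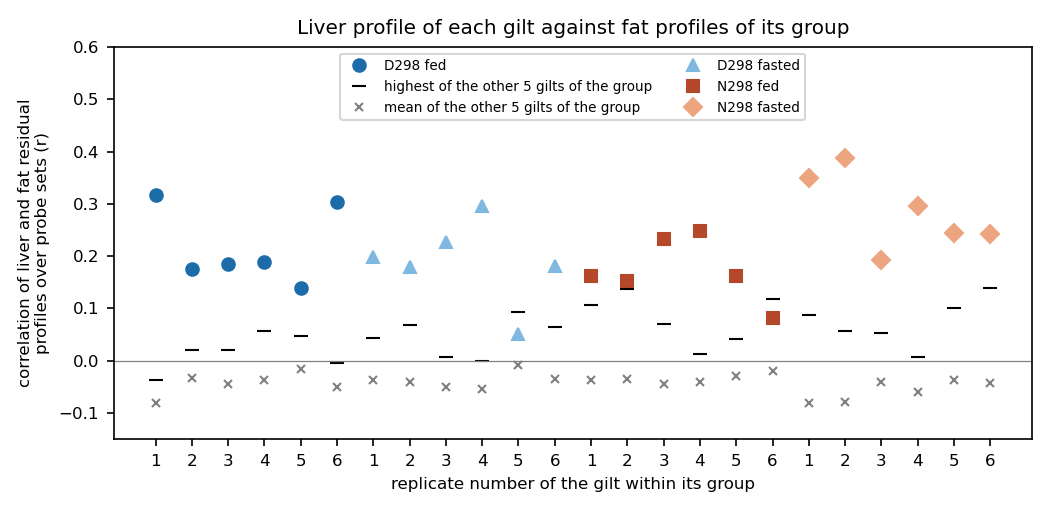
Correlation over the tested probe sets between the group-centred liver profile of each gilt and fat profiles of its group, with gilts on the horizontal axis by group and replicate number. Coloured symbols are the own fat array (0.0515 to 0.388), dashes the best and crosses the mean of the other 5 gilts; the own symbol is above the dash in 22 of 24 gilts.

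Positive covariation was widespread and weak, and strong in a small set. The median r over the tested probe sets was 0.159, with quartiles of -0.0178 and 0.342, and 7972 (72.8%) had an r above 0. There were 444 probe sets called with a positive r (4.06%) and 4 with a negative r (0.0365%). At an unadjusted p under 0.05 the counts were 1719 and 99. Among those called, 75 had an r of at least 0.8 and 25 of at least 0.9.

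Called probe sets varied more between gilts than the rest. Their median residual SD was 0.384 on the log2 scale in liver and 0.361 in fat, against 0.276 and 0.246 over all tested. Of those tested, 5973 carried 1 gene symbol, 124 several and 4851 none. Called were 239 of those with 1 symbol and 197 of those with none. Taking the brightest probe set of each of 4633 genes, 196 genes were called positive (4.23%) and 3 negative (0.0648%), with a median r of 0.168 over all genes.

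**Figure D2:**
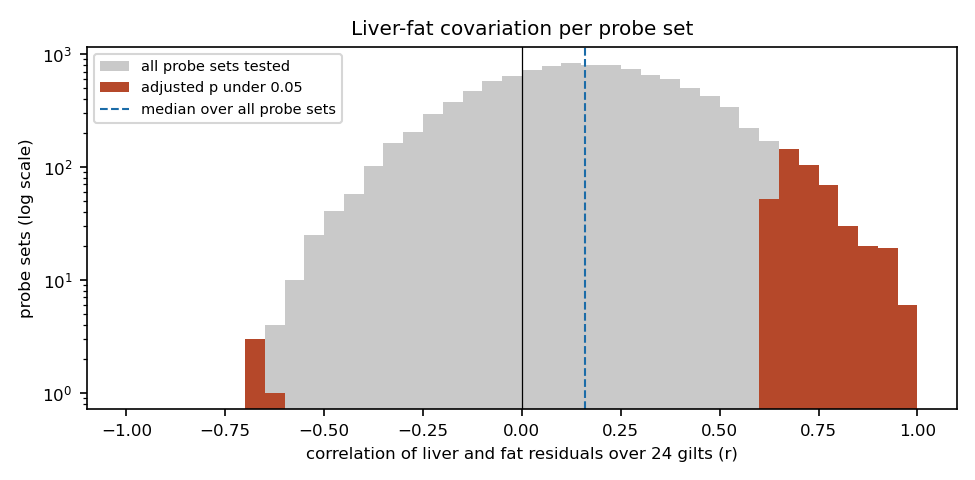
Number of probe sets (log scale) against the correlation of liver and fat residuals over 24 gilts, for all 10948 tested (grey) and for those with an adjusted p under 0.05 (red). The distribution is centred above 0, at a median of 0.159 (dashed line), and 444 of the 448 called probe sets lie on the positive side.

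Among fed, fasted, D298 and N298 gilts, the median r over all tested probe sets was 0.149, 0.189, 0.167 and 0.169. The same test within each of these subsets called 50, 40, 20 and 58 probe sets with a positive r. With a negative r it called 1, 0, 0 and 1. Of the 444 probe sets called over all gilts, 444 had an r above 0 among the 12 fed gilts, 443 among the fasted, 444 among D298 and 441 among N298. Their median r was 0.740, 0.743, 0.740 and 0.730. These subsets are contained in the 24 gilts that chose the 444 probe sets, so the counts and medians of the 444 are a description. A test of the difference itself, by the interaction of the slope of liver on fat with feeding state, called 0 probe sets, with 611 at an unadjusted p under 0.05. For genotype it called 0, with 515 unadjusted. Testing the difference of the correlations by Fisher's z also called 0 for each. Most probe sets that covaried were not among the fasting genes, which also held for all probe sets tested. Fasting (limma, both genotypes) changed 38 of the 444 in liver (8.56%), against 10.5% of all tested, and 152 in fat (34.2%) against 45.7%. The 444 also varied more between gilts, as given above, and the part of this in their lower shares was not tested.

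For some of the strongest genes the widest gap between neighbouring gilts had the same animals below it in both tissues. Gaps were taken in the log2 signals themselves, before group means were removed. Of the 5 described next, CALR alone had a gap of over 33.3% of the range in both tissues with at least 3 gilts on each side, so the other 4 are not separate sets by that rule. GSTM3, a glutathione transferase that detoxifies reactive compounds, ran from log2 5.11 over a median of 8.59 to 9.52 in liver, and from 5.96 over 7.31 to 8.29 in fat. Of the gilts 9 lay at or below 7.06 in liver and 6.69 in fat, and the other 15 at or above 8.53 and 6.995. The same 9 gilts were low in both tissues, 2 or 3 of each group. Over all gilts r was 0.906 (rho 0.816, permutation p = 1e-05 for each, adjusted p = 7.97e-06), and within the low and the high gilts it was 0.422 and 0.390.

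LYPLAL1, a lysophospholipase-like enzyme whose locus is known for its link to fat distribution in people, ran from log2 5.15 over 7.63 to 9.52 in liver and from 4.30 over 7.79 to 9.36 in fat. The same 10 gilts were low in both tissues, at or below 6.45 in liver and 6.82 in fat, against at least 7.38 and 7.62 in the other 14. One of the low gilts was D298 fed and 3 came from each other group. Its r was 0.899 over all gilts (adjusted p = 1.29e-05) and 0.330 and 0.596 within the sides.

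PCBP2, an RNA-binding protein that stabilises messenger RNAs and restrains antiviral signalling, had log2 signals of 12.04 to 13.93 in liver (median 13.31) and 12.33 to 14.18 in fat (median 13.46). The same 9 gilts were low in both, 4 of D298 fed, 3 of D298 fasted and 1 of each N298 group. Its r was 0.948 over all gilts (adjusted p = 8.70e-08), 0.932 among the 15 high gilts and 0.568 among the low ones. The other probe sets of PCBP2 did not show this: their r was 0.23 and 0.18.

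PLAC8, a small cysteine-rich protein of immune cells and adipocyte precursors, was low in the same 7 gilts, at or below log2 8.46 in liver and 6.46 in fat, against at least 8.86 and 7.66 in the other 17. Its r was 0.901 over all gilts (adjusted p = 1.15e-05), 0.794 within the high gilts and 0.176 within the low ones. CALR, calreticulin of the endoplasmic reticulum, was high in 3 gilts in both tissues, at log2 10.99 or more in liver and 9.70 or more in fat. The other 21 gilts reached at most 9.46 and 8.93, and their r was 0.692; no pooled r is given for CALR, since the 3 stood apart. The 3 were N298 fed 1, N298 fed 3 and N298 fasted 5.

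Counting over the array, the widest gap between neighbouring gilts parted the same animals in liver and fat for 30 of the probe sets tested (0.274%) and for 24 of the 444 called (5.41%). Of the 25 with an r of at least 0.9, it did so for 14. An r this high is itself part of what makes the sides match, so these shares are a description. As group means were kept in this count, a gap can also part fed from fasted gilts. For FASN, fatty acid synthase, the gilts below the gap in both tissues were the 6 fasted ones of each genotype.

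TNFAIP1, an adaptor that brings proteins such as RhoA to a ubiquitin ligase, had the highest r. Its log2 signal ran from 6.14 over a median of 10.75 to 11.71 in liver and from 6.09 over 9.36 to 9.93 in fat. D298 fasted 1 and D298 fed 2 lay far below all others in both tissues, at 6.14 and 7.38 in liver and 6.09 and 6.47 in fat. The correlation was 0.986 (95% interval 0.964 to 0.994, Spearman rho 0.961, permutation p = 1e-05 for each, adjusted p = 4.15e-12). Without the 2 gilts farthest from the median in liver r was 0.929.

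THYN1, a nuclear protein of little known function, and ACAD8, the mitochondrial isobutyryl-CoA dehydrogenase of valine breakdown, are neighbours in the RefSeq gene order of the pig (Sscrofa11.1). THYN1 ran from log2 8.84 to 10.45 in liver and 8.79 to 10.44 in fat, with r = 0.946 (0.868 to 0.978, rho 0.906, permutation p = 1e-05 for each, adjusted p = 1.27e-07, 0.920 without the 2 farthest gilts). ACAD8 ran from 10.01 to 11.69 in liver and 9.36 to 11.59 in fat, with r = 0.869 (adjusted p = 8.76e-05, 0.793 without the 2 farthest). Its other probe set had r = 0.46. No wide gap was seen in either gene.

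HNRNPL, a splicing regulator, ran from log2 7.36 over 10.86 to 11.51 in liver and from 6.99 over 11.03 to 11.59 in fat. D298 fed 6 and D298 fed 2 were the lowest in both tissues, followed by D298 fasted 4. Its r was 0.937 (rho 0.845, permutation p = 0.00033 and 0.00028, adjusted p = 3.53e-07) and 0.803 without the 2 farthest gilts. FBXO32, the ubiquitin ligase atrogin-1 known for muscle wasting, had r = 0.851 (adjusted p = 0.000246), but r = 0.440 without 2 gilts. N298 fasted 5 and D298 fed 6 were the lowest in both tissues, so much of its value rests on them.

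The remaining genes among the 20 of highest r had an r between 0.834 and 0.878, with adjusted p of 5.53e-05 to 0.000478. They were CHMP1B (membrane scission), GLO1 (glyoxalase, which removes methylglyoxal), SLA-6 (MHC class I), C2CD2, LYN (a kinase of myeloid and B cells), RSAD2 and OAS1 (antiviral), APH1A (a subunit of gamma secretase), FAM204A and YIPF1. GLO1 had other probe sets with r = 0.77 and 0.39, C2CD2 one with 0.56 and CHMP1B one with 0.45. Without the 2 farthest gilts the value of FAM204A was 0.554, and those of the other 9 were 0.687 to 0.869. Of 37 called genes with another tested probe set, the others all had an r above 0 in 34, and another was called in 6.

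**Figure D3:**
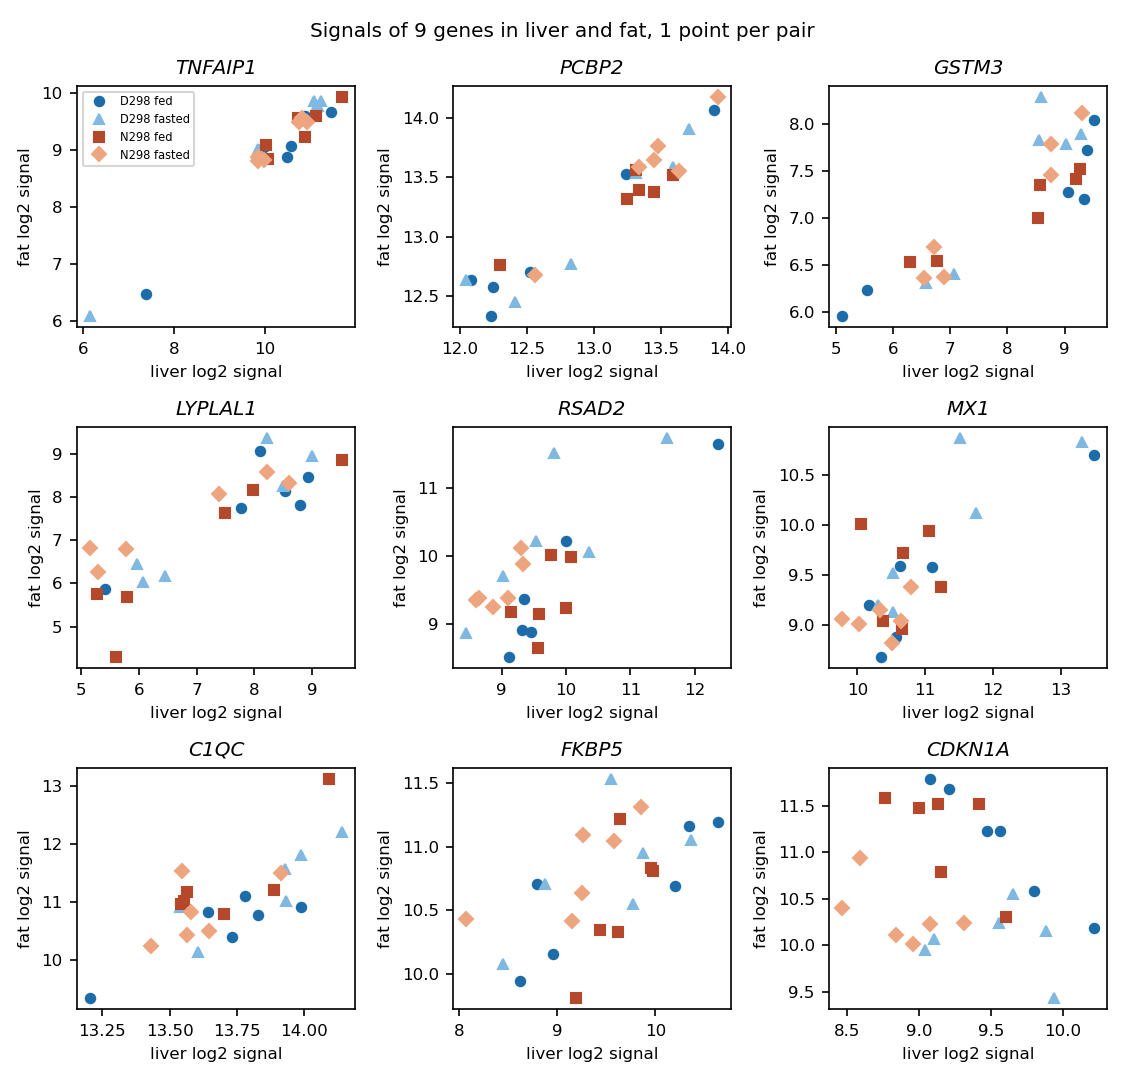
Log2 signal in fat against log2 signal in liver for 9 genes, 1 point per pair, with colour and symbol for the 4 groups. In GSTM3, LYPLAL1 and PCBP2 the same 9 or 10 gilts lie below the widest gap on both axes, 2 gilts lie far below the rest in TNFAIP1, and CDKN1A falls from left to right within the fed groups.

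Interferon-induced genes covaried more than any other list, by median r. All 23 tested of 25 on the array had an r above 0, the median was 0.543 against 0.168 over all genes, and 8 of 23 were called (34.8%, against 4.23% of all genes). The called genes were RSAD2, OAS1, IRF9, XAF1, IFIT3, MX1, ISG15 and ISG12(A). They include enzymes that block viral replication (RSAD2, OAS1, MX1), a protein that binds viral RNA (IFIT3), a ubiquitin-like modifier (ISG15) and a subunit of the transcription factor complex that interferon activates (IRF9).

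RSAD2 (viperin) ran from log2 8.44 over 9.40 to 12.37 in liver and from 8.52 over 9.39 to 11.74 in fat. D298 fed 6 and D298 fasted 5 were the highest in liver, and these and D298 fasted 2 were the highest in fat. Its r was 0.854 (0.668 to 0.939, rho 0.742, permutation p = 0.00011 and 0.0007, adjusted p = 0.000214), and 0.687 without the first pair of gilts (adjusted p = 0.0419). OAS1 ran from 7.71 over 8.89 to 11.87 in liver and from 7.99 over 9.04 to 10.80 in fat, and D298 fasted 5, D298 fed 3 and D298 fasted 2 were the highest in both. Its r was 0.846 (rho 0.829, permutation p = 1e-05 for each, adjusted p = 0.0003).

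MX1, which blocks influenza and other viruses, ran from log2 9.77 over 10.60 to 13.50 in liver and from 8.68 over 9.29 to 10.87 in fat. Its r was 0.753 (rho 0.652, permutation p = 0.0023 and 0.0046, adjusted p = 0.00647) and 0.510 without D298 fed 6 and D298 fasted 5 (adjusted p = 0.227). Leaving out D298 fed 6 alone also ended its call. Among D298 gilts r was 0.873 and among N298 gilts 0.0205, a difference that did not pass the genotype test.

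Over the list, D298 fasted 5 was the highest of 24 gilts in liver for 12 of 23 genes and D298 fed 6 for 7. In fat D298 fed 6 was the highest for 10 genes, D298 fasted 2 for 3 and D298 fasted 5 for 2. D298 fed 6 was the highest in both tissues for 5 genes, and D298 fasted 5 for 0. On the log2 scale the list's median residual in D298 fasted 5 was 1.24 in liver and 0.34 in fat. In D298 fed 6 it was 1.10 and 0.44, and in D298 fasted 2 it was 0.20 and 0.39. D298 fasted 4 was low in both, at -0.63 and -0.56. Without D298 fed 6 and D298 fasted 5 the list held 5 called genes, and without all gilts numbered 6 it held 3. D298 fasted 5 was also 1 of the 4 gilts high in fat ALB, and without those 4 the list held 7.

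Within each tissue the genes most like RSAD2, by Pearson r of residuals over 24 arrays, were IFIT1 (0.907), IFIT2, IFIT3, PARP9 and MX1 (0.879) in liver. In fat they were IFIT3 (0.877), ISG15, IRF9, IFI44L and MX1 (0.843). All 10 places were thus filled by interferon-induced genes, of which IFIT3 and MX1 appeared for both tissues.

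Macrophage markers had the second highest median, 0.509 over 15 tested of 17 on the array. Of the 15, 5 were called (33.3%, against 4.23% of all genes). These were C1QC and C1QA (chains of complement C1q, made by macrophages), CD163 (the haemoglobin scavenger receptor), AIF1 and FCER1G. In bulk tissue a change in the number of macrophages and a change in RNA per cell cannot be told apart. CD14, FCGR2B and CD86 had an r of -0.06, -0.09 and -0.10.

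C1QC ran from log2 13.20 over 13.67 to 14.14 in liver and from 9.34 over 10.94 to 13.12 in fat. N298 fed 1 had the highest fat signal, and D298 fed 3 was the lowest in both tissues. Its r was 0.80 (0.562 to 0.915, rho 0.756, permutation p = 0.0001 for each, adjusted p = 0.00196) and 0.763 without N298 fed 1. CD163 ran from 10.67 over 11.48 to 12.92 in liver and from 8.46 over 9.36 to 11.46 in fat, with r = 0.772 (adjusted p = 0.00429).

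N298 fed 1 was the highest gilt in fat for 13 of 15 macrophage markers and in liver for 6, and all 6 were among the 13. The list's median residual in it was 1.23 in fat and 0.40 in liver. D298 fasted 3 and D298 fed 3 lay lowest in fat, at -0.82 and -0.48, and stood at -0.18 and -0.38 in liver. Without N298 fed 1 the list still held 5 called genes. Without all gilts numbered 1 it held 1, and without the 4 gilts high in fat ALB it held 4, as CD163 was lost (adjusted p = 0.0529).

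In liver the genes most like C1QC were CD163 (0.904), SPI1, ANXA1, C1QA and GP91-PHOX (0.802). In fat they were C1QA (0.960), FCGR2B, VSIG4, TYROBP and FCER1G (0.839). The complement list held C1QC and C1QA as its 2 called genes of 16 (12.5%, against 4.23% of all genes), with a median r of 0.0899. The summed macrophage signal ran from 36208 to 61264 per liver array and from 5052 to 29036 per fat array. The part of macrophage content in the covariation of other immune genes was not tested.

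**Figure D4:**
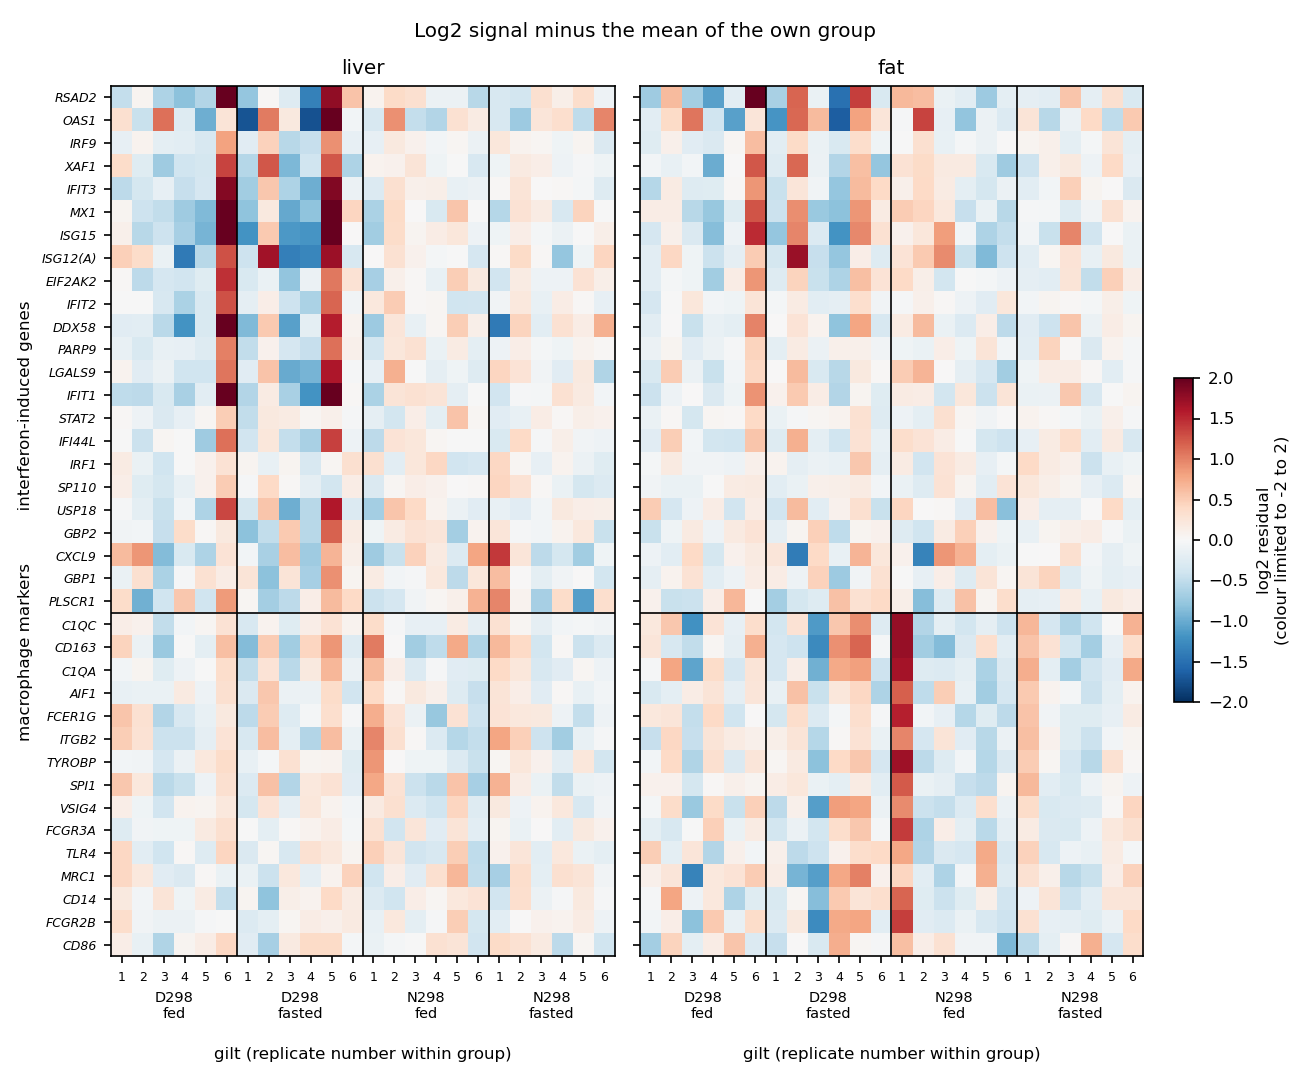
Log2 signal minus the mean of the own group for 23 interferon-induced genes and 15 macrophage markers (rows, by falling r) in liver and fat of 24 gilts (columns). Red columns in liver are D298 fed 6 and D298 fasted 5 for interferon genes, paler in fat, and the red column in fat for macrophage markers is N298 fed 1.

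Genes of antigen presentation covaried in part. Of 14 MHC class I and peptide loading genes 6 were called (42.9%, against 4.23% of all genes), and the median r was 0.344. There were 3 class I genes, SLA-6 (0.873), SLA-3 (0.809) and SLA-2 (0.649), which display peptides to killer T cells. The others were TAP1 (the peptide transporter), TAPBP (tapasin, which loads peptides) and CALR. B2M, the light chain shared by all class I molecules, had r = -0.28 and was not called. Pig class I genes are close copies of each other and polymorphic, so the probe sets of 1 gene may read another or read alleles unequally.

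SLA-3 ran from log2 11.25 over 12.77 to 13.41 in liver and from 11.64 over 12.86 to 13.95 in fat, without a wide gap. SLA-6 ran from 7.70 over 8.70 to 9.34 in liver and from 8.17 over 9.36 to 10.51 in fat. Its r was 0.873 (rho 0.891, permutation p = 1e-05 for each, adjusted p = 7.13e-05). TAPBP was called at r = 0.652 (adjusted p = 0.0383), a call lost in 13 of 24 fits that left out 1 pair. Without the 4 gilts high in fat ALB 3 genes of the list were called.

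Of 9 MHC class II genes 2 were called (22.2%, against 4.23% of all genes), with a median r of 0.402, and all 9 had an r above 0. The list held 0 called genes without all gilts numbered 3 or all numbered 6, and 1 with replicate number as block. It still held 2 without the 4 gilts high in fat ALB. SLA-DRB1, a chain that presents peptides to helper T cells, had r = 0.750 (rho 0.755, permutation p = 8e-05 and 0.00011, adjusted p = 0.00685), and CD74, its invariant chain, 0.672 (adjusted p = 0.0283). SLA-DRA, the partner chain of SLA-DRB1, had r = 0.402 (adjusted p = 0.358). The call of CD74 was lost without D298 fed 2, D298 fasted 4 or N298 fasted 2. GNLY, granulysin of cytotoxic lymphocytes, had r = 0.766 (adjusted p = 0.00488). It was the 1 called of 9 lymphocyte genes (11.1%, against 4.23% of all genes).

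Of 22 tested genes known to respond to glucocorticoids 3 were called positive (13.6%, against 4.23% of all genes) and 1 negative, and the median r of 0.190 was close to the 0.168 over all genes. FOXO1 and CEBPD are transcription factors of fasting and of acute stress, and FKBP5 is a chaperone that restrains the glucocorticoid receptor. FKBP5 ran from log2 8.07 over 9.56 to 10.64 in liver and from 9.81 over 10.71 to 11.53 in fat, with no group apart from the others. Its r was 0.706 (0.394 to 0.872, rho 0.696, permutation p = 0.00025 and 0.00054, adjusted p = 0.0165). FOXO1 had r = 0.717 (adjusted p = 0.0133) and CEBPD 0.707 (adjusted p = 0.0162). The other probe set of FKBP5 had r = 0.49, and so had that of CEBPD.

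TSC22D3 (GILZ), PER1 and PDK4, which the same hormone is known to raise, had an r of 0.200, 0.494 and -0.0245, with adjusted p of 0.735, 0.208 and 0.974. In fat the genes most like FKBP5 were PDLIM5 (0.756), SDF2, DNAJA1, CEBPD (0.725) and CHIC2. In liver they were QPCT (0.735), KLF13, AATF, KLF9 (0.679) and PFKM. Without the 4 gilts high in fat ALB, FKBP5 had r = 0.664 (adjusted p = 0.0873) and CEBPD 0.676 (adjusted p = 0.0772), and FOXO1 alone of the 3 stayed called.

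CDKN1A, the cell cycle inhibitor p21, was the negative gene of that list. It ran from log2 8.47 over 9.18 to 10.22 in liver and from 9.44 over 10.48 to 11.79 in fat, and the gilts high in one tissue tended to be low in the other. Its r was -0.643 (-0.841 to -0.293, rho -0.543, permutation p = 0.0017 and 0.011, adjusted p = 0.0434), a call that 16 of 24 fits without 1 pair lost. In fed gilts r was -0.860 and in fasted gilts -0.317, a difference that did not pass the feeding test. The other negative genes were CAPN7, a calpain protease, at r = -0.677 (adjusted p = 0.0266) and PTDSS1, which makes phosphatidylserine, at -0.670 (adjusted p = 0.0295). Each of these lost its call without 1 of 3 pairs: D298 fed 6, N298 fed 2 or N298 fed 4 for CAPN7, and D298 fasted 3, N298 fed 1 or N298 fed 4 for PTDSS1.

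Splicing and RNA-binding genes had a median r of 0.410, the third highest, with 2 of 31 called (6.45%, near the 4.23% over all genes). HNRNPA1 and TRA2B, regulators of exon choice, had r = 0.671 and 0.661 (adjusted p = 0.0288 and 0.0341). The other probe sets of TRA2B had r = 0.45, 0.32 and 0.18. At an unadjusted p under 0.05 were 14 of 31, SRSF5 (0.61), SRSF7 (0.57) and SRSF2 (0.56) among them. Each of the 2 calls was lost in 7 or 8 of 24 fits without 1 pair, and without the 4 gilts high in fat ALB the list held 0.

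Genes of energy metabolism had few calls. Of 59 genes of oxidative phosphorylation 3 were called (5.08%, near the 4.23% over all genes), while the median r was 0.288, 50 had an r above 0 and 15 were at an unadjusted p under 0.05. COX7C, a subunit of cytochrome oxidase, had r = 0.784 (adjusted p = 0.00303). NDUFS1 of complex I had 0.694 (adjusted p = 0.0197), lost without D298 fed 1 or N298 fed 3. CYCS, cytochrome c, had 0.636 (adjusted p = 0.0477), lost in 19 of 24 fits without 1 pair. In liver D298 fasted 2 was the highest gilt for 13 of the 59 genes and D298 fed 4 for 8. Of these genes, 0 and 2 were highest in the same gilt in fat. D298 fed 3 was the highest in fat for 12 genes and in liver for 0. N298 fed 3 was the highest gilt in fat for 33 of the 59 genes and in liver for 6, all among the 33. The list's median residual in it was 0.44 in fat and 0.10 in liver. That gilt was 1 of the 4 high in fat ALB, and without those 4 the list held 1 called gene.

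IDH1, the cytosolic isocitrate dehydrogenase that supplies NADPH, had r = 0.705 (adjusted p = 0.0168, lost without D298 fed 1). It was the 1 called of 9 genes of fatty acid synthesis (11.1%, against 4.23% of all genes). All 9 had an r above 0, with a median of 0.345, and 2 were at an unadjusted p under 0.05. FASN, the fatty acid synthase itself, spanned log2 8.58 to 13.16 in liver and 10.34 to 14.59 in fat with r = 0.222 (adjusted p = 0.695). Of 12 cholesterol genes 0 were called (median r 0.0802, 0 at an unadjusted p under 0.05 by the same test). ETFA, the electron carrier of fatty acid oxidation, was the 1 called of 24 in its list (4.17%, near the 4.23% over all genes). Its r was 0.655 (adjusted p = 0.0367), a call lost in 9 of 24 fits without 1 pair.

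Antioxidant genes held 3 called of 26 (11.5%, against 4.23% of all genes), with a median r of 0.258: GSTM3, GSTA4 and PRDX5. GSTA4, which clears the lipid aldehyde 4-hydroxynonenal, ran from log2 8.06 over 9.95 to 11.84 in liver and from 7.87 over 8.58 to 9.73 in fat. Its r was 0.814 (rho 0.819, permutation p = 3e-05 and 5e-05, adjusted p = 0.00121). PRDX5, a peroxiredoxin, had r = 0.691 (adjusted p = 0.0209), lost without D298 fed 6, D298 fasted 2 or N298 fed 6. HMOX1, SOD2 and CAT had an r of 0.63, 0.15 and -0.00 and were not called.

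Among housekeeping complexes the proteasome and the ribosome differed in their medians. Of 31 proteasome genes 2 were called (6.45%, near the 4.23% over all genes), with a list median of 0.243. The 2 were PSMC1 (r = 0.743, adjusted p = 0.00791) and PSMB6 (0.735, adjusted p = 0.00953). Of 56 ribosomal protein genes 0 were called, 0 were at an unadjusted p under 0.05, 21 had an r above 0 and the median was -0.0601. Other probe sets gave another picture for 2 of them, which were chosen after their values were seen. A second probe set of RPL38 had r = 0.966 (adjusted p = 3.40e-09), with the same 6 gilts below the widest gap in both tissues and r = 0.727 within these and 0.907 within the other 18. The brightest probe set of RPL38 had r = 0.19. For RPS27 a second probe set had r = 0.839 (adjusted p = 0.000395) and the brightest -0.25. In all 35 genes were called only by a probe set other than the brightest.

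Single members were called in 4 further lists, a share of 3.85% to 5.88% of each that was near the 4.23% over all genes, so these calls are given gene by gene and say nothing of the lists. DNAJA1, an HSP40 co-chaperone, had r = 0.702 (adjusted p = 0.0175, lost without D298 fasted 4) among 21 heat shock genes. The other probe set of DNAJA1 had r = 0.15. CTSD, cathepsin D, had 0.656 (adjusted p = 0.0367) among 26 genes of lysosome and autophagy, lost in 8 of 24 fits without 1 pair. CALR was the 1 called of 21 genes of protein folding in the endoplasmic reticulum. CYP3A46, a drug-metabolising cytochrome of the liver with close copies in its family, had 0.678 (adjusted p = 0.0263) among 17 genes of xenobiotic metabolism. Its log2 signal ran from 12.90 to 14.74 in liver and from 3.59 over a median of 6.53 to 12.41 in fat. The fat median was thus below the signal limit of 7, which the fat mean of 7.27 passed. The part of weak signal in its r was not tested. CYP3A46 stayed called without the 4 gilts high in fat ALB (r = 0.730, adjusted p = 0.0377). Its call was lost without N298 fed 1 or N298 fed 4, and with replicate number as block (r = 0.698, adjusted p = 0.0977).

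No member was called by the same test in the lists of the circadian clock (8 tested, 1 at an unadjusted p under 0.05, median 0.270), immediate early genes (11, 1 and 0.0145), acute phase (9, 2 and -0.0580), the insulin-like growth factor axis (9, 1 and 0.201) and imprinted genes (10, 1 and 0.0488). The same held for cell division (8, 2 and 0.325) and extracellular matrix (23, 2 and 0.123). PER1 was the clock gene of smallest p, and DBP, an output of the clock, had r = -0.121. EGR1, an immediate early gene, spanned log2 8.20 to 12.09 in liver and 10.40 to 13.30 in fat with r = 0.590 (adjusted p = 0.0871).

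Markers of other cell types were not called either. They were adipocyte (4 tested, median 0.313), endothelial (15, 0.152), fibroblast and smooth muscle (12, 0.0855), erythroid (4, -0.0154) and skeletal muscle genes (3, -0.171). At an unadjusted p under 0.05 were 1, 3, 1, 0 and 0 of them. HBB, a haemoglobin chain that reads blood left in the tissue, had r = 0.0175 (adjusted p = 0.981). Of the hepatocyte markers 4 passed the signal limit in fat, with a median r of -0.309 and 1 at an unadjusted p under 0.05. ALB itself had r = -0.496 over all gilts and 0.399 without the 4 with high ALB in fat, and neither was called (adjusted p = 0.205 and 0.452). The secreted factors IGF1 and IGF2 had r = 0.421 and -0.00374 (adjusted p = 0.325 and 0.996). No mitochondrially encoded gene and no neutrophil marker was tested. MC4R and LEP (leptin) were below the signal limit, and SLA-1, NR1D1 and HSPA1A had no probe set with that symbol alone.

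**Figure D5:**
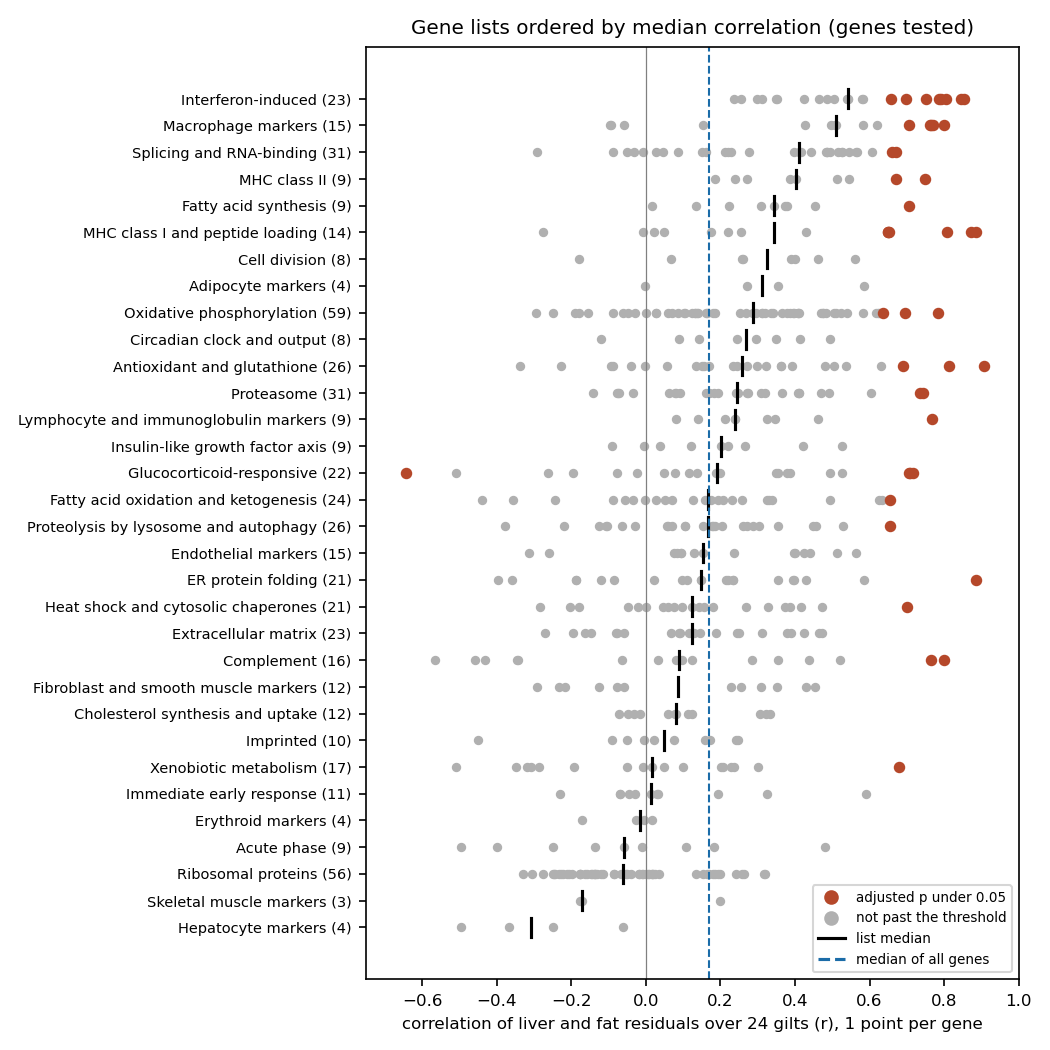
Correlation of liver and fat residuals over 24 gilts, 1 point per gene at its brightest probe set, for the 32 gene lists with a tested member, ordered by median (black bar). Interferon-induced genes (0.543) and macrophage markers (0.509) are at the top and hepatocyte markers (-0.309) at the bottom, beside the median of 0.168 over all genes (dashed line).

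Genes that neighbour each other in the RefSeq gene order were counted for 4587 genes with a position. Of 193 called genes 22 had a called gene among their nearest tested neighbours (11.4%), against 356 of the others (8.10%). The 11 pairs included C1QA and C1QC, SLA-2 and SLA-3, THYN1 and ACAD8, MX1 and C2CD2, and TMEM14A and GSTA4. Whether the probe sets of close copies such as SLA-2 and SLA-3 read each other's transcripts was not tested.

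Array-wide measures were compared between the tissues in the same way, as 3 relations. The log2 ratio of the 3 prime to the 5 prime actin probe sets, a sign of RNA quality, had r = 0.627 (rho 0.316, permutation p = 0.0656 and 0.165, 0.197 adjusted over the 3) and 0.0504 without the 2 farthest gilts, so that it rested on those. The same ratio for GAPDH had r = 0.145 (rho 0.180, permutation p = 0.559 and 0.444), and the median log2 signal r = -0.115 (rho -0.0678, permutation p = 0.608 and 0.764). The part of RNA quality in the covariation of single genes was not tested.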

How the data were processed

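RNA of liver and fat was labelled by the one-cycle method and measured on porcine Affymetrix arrays, per the labels. The authors deposited 1 linear signal intensity per probe set, made with MAS5 in affy, per the submitters' processing notes (versions not given in the sources used here). The deposited intensities have a mean of 500.0 on each array without the lowest and highest 2% of values. Log2 was taken with nothing added, and 124 control probe sets were left out. Genes follow the platform annotation, by the brightest tested probe set per symbol. Correlations were computed in Python 3.11.15 with NumPy 2.4.6, SciPy 1.17.1 and pandas 2.3.3, plots with Matplotlib 3.10.9, and the fasting fit with limma 3.58.1 in R 4.3.3 (adjusted over all probe sets tested, replicate number as block).

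Named are the 20 highest and the called negative genes, up to 4 called members of each of 34 lists on the majority side and 2 on the opposite one (or the 1 of smallest p), and 17 genes fixed by name. The comparison and the lists were chosen with earlier results of these data known. Among the named genes CALR alone met the rule for separate sets in both tissues (a gap over 33.3% of the range with at least 3 gilts on each side), and its r is given within the larger set only. For PCBP2, GSTM3, PLAC8, LYPLAL1 and RPL38 r within the sides of the widest gap stands beside the pooled r. The low gilts of GSTM3, PLAC8 and LYPLAL1 in fat, and of LYPLAL1 in liver, lay below log2 7, the limit set for means. The part of weak signal in r within these low sides was not tested. With the signal limit of 9 these genes were not tested. On simulated data with 10948 probe sets, 12% of 50 correlations of 0.5, 58% of 0.7, 84% of 0.8 and 100% of 0.9 were called. Only these probe sets were given a correlation, and all probe sets were drawn independently of each other. The real data had a median r of 0.159, so the shares hold for the simulated setting only. Alternatives changed the block, coefficient, scaling, filter, offset, first principal component and animals.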

Additional observations from a re-analysis of the deposited data

Results flagged for a closer look

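Of 76 sets of 6 values (own-pair profile correlations in 4 groups, and 9 plotted genes in 8 groups), 10 held a gilt far from the other 5 by Dixon's criterion, which chance meets in about 1 of 20 sets. TNFAIP1 was low in D298 fed 2, at log2 7.38 in liver (others 9.99 to 11.45) and 6.47 in fat (8.87 to 9.67). It was low in D298 fasted 1 too, at 6.14 in liver (9.86 to 11.25) and 6.09 in fat (9.01 to 9.86). PCBP2 was low in N298 fed 3, at 12.30 in liver (13.25 to 13.59) and 12.76 in fat (13.32 to 13.56). LYPLAL1 was low in liver of D298 fed 1, at 5.41 (7.77 to 8.93). RSAD2 and MX1 were high in liver of D298 fed 6, at 12.37 (9.11 to 9.99) and 13.50 (10.17 to 11.10). C1QC was high in fat of N298 fed 1, at 13.12 (10.80 to 11.20).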

How the results depend on the processing

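With a signal limit of 9, 242 of 4529 tested probe sets were called positive, in place of 444 of 10948. The count of 444 became 185 with the replicate block (171 of them shared), 264 with the first principal component removed and 223 to 349 without 1 replicate number. It was 301 without the 4 gilts high in fat ALB, 368 without the 2 highest in interferon genes, 397 without N298 fed 1 and 364 to 435 without each pair in turn. The 4 negative probe sets became 2 with quantile normalization, 2 with median-centred arrays, 1 without the first component, 2 without the 4 gilts, 1 without N298 fed 1 and 0 to 4 without 1 replicate number. The median r fell to 0.0890 with no filter and was 0.121 to 0.190 otherwise. The mean own-pair correlation stayed above 0, from 0.0394 with no filter to 0.257, at p = 0.0005 each (2000 permutations, the smallest they give). The count of differences by feeding state or genotype was 0 by the interaction, by Fisher's z and with the replicate block, and was not computed under the other alternatives. Fits without gilts hold fewer pairs and the fit with no filter adjusts over more probe sets, and the cause of the changes was not tested. Of 52 called named genes, 36 were called in every fit without 1 pair and 0 changed sign under any alternative. With the replicate block, on 14 degrees of freedom in place of 19, 19 lost their call, among them C1QC (r = 0.707, adjusted p = 0.0881), C1QA (0.739, 0.0572), FKBP5 (0.671, 0.134), CEBPD (0.659, 0.150), CAPN7 (-0.704, 0.0912), PTDSS1 (-0.740, 0.0572) and CDKN1A (-0.601, 0.234). The interferon list then held 6 called genes, the macrophage list 2 and MHC class I 3. With the first principal component removed, 36 of the 52 kept their call and 16 lost it. Among those lost were CDKN1A (r = -0.223, adjusted p = 0.774), ETFA (0.274, 0.695), IDH1 (0.375, 0.505), C1QC (0.625, 0.0876) and C1QA (0.663, 0.0546). In that fit the interferon list held 8 called genes, the macrophage list 2, MHC class I 3 and complement 0. The labels name a randomized block design without saying that the number marks the block. Residual profiles of same-numbered arrays of different groups correlated at a mean of 0.0443 in liver (-0.216 to 0.237, 10 of 36 pairs above 0.1) and 0.0807 in fat (-0.214 to 0.279, 18 of 36), against -0.00824 and -0.0160 for other numbers. Same numbers were thus the higher in the mean, but not every pair was above 0.1, so whether the number marks a block is not settled. Fits without the named gilts and without single pairs were added after the data were seen.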
